A study of Homo sapiens with 18 samples.

Results

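The keratin (KRT) and keratin-associated protein (KRTAP) genes were described in maps of the linker histones H1.2 and H1.5. Members were the protein-coding genes of hg19 named KRT plus a number, with or without a letter, or KRTAP plus numbers, on chromosomes 11, 12, 17 and 21. There were 149 members, 55 KRT and 94 KRTAP genes, of 20098 protein-coding genes on chromosomes 1 to 22 and X. The maps came from undifferentiated HL-60/S4 cells, an established human myeloid leukemia line that grows in suspension, and no epithelial cell was mapped. In xChIP-seq, cells fixed with formaldehyde were sonicated first and then met an antibody to H1.2 or to H1.5. In xxChIP-seq, the antibody was bound inside fixed and permeabilized cells, which were fixed again before sonication. Each of the 4 groups was deposited as a single list merging 3 replicates, without scores, so that depth is unknown, no spread between replicates can be given, and values stated in list order run from xChIP (H1.2, then H1.5) to xxChIP (H1.2, then H1.5).

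Keratins form the intermediate filaments of epithelial cells, in which a type I keratin pairs with a type II keratin. KRTAP proteins form the matrix around the keratin filaments of hair. Neither family is characteristic of blood cells. Linker histone H1 binds nucleosomes where DNA enters and leaves, and its isotypes are found along most of the genome.

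The start sites of the members were poor in CpG, while the GC content of the same windows varied, with medians of 51.9% over KRT and 46.2% over KRTAP genes. The observed/expected CpG ratio of the window from 1000 bp before to 1000 bp after the transcription start site (TSS) had a median of 0.240 over KRT and 0.186 over KRTAP genes. For each member, comparison genes were taken as all protein-coding non-members of its chromosome whose surrounding 100 kb had a GC content within 2 percentage points, which gave 2211 genes in all and 11 to 363 per member. Counted once each, these genes had a median CpG ratio of 0.611 for KRT and 0.628 for KRTAP members. A ratio under 0.4 was found in 49 of 55 KRT and 93 of 94 KRTAP windows, against 33.1% of the other protein-coding genes of the 4 chromosomes. Nearly all members therefore had CpG-poor start sites, unlike most of the genes they were compared with. KRTAP genes were also short, with a median of 859 bp against 7098 bp for KRT genes.

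Promoter sequences, from 250 bases before to 50 bases after the start, were taken from RefSeq (GRCh38.p14), which held 114 of the 149 members, and 110 of these matched GRCh37 exactly at a single place. The letters TATAAA, searched on both strands, occurred in 20 of 34 KRT (58.8%) and 64 of 80 KRTAP promoters (80.0%), against 11.5% of all 35116 promoters of the table. Searched on the strand of the gene alone, at 20 to 40 bases before the start, they were found in 15 KRT (44.1%) and 34 KRTAP promoters (42.5%). Over all promoters the share at that place was 2.30%. The letters GGGCGG, also on both strands, occurred in 6 KRT promoters (17.6%) and 1 KRTAP promoter (1.25%), against 45.0% of all. Such matches only describe the letters of these windows.

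The promoters of 8 members follow, 5′ to 3′ on the strand of the gene, with TATAAA and GGGCGG on either strand in capitals. They include a window covered by no list and windows covered by different lists. KRT5 (chr12:52914129-52914428, - strand) was covered by no list. KRT10 (chr17:38978817-38979116, - strand), KRT31 (chr17:39553811-39554110, - strand) and KRT38 (chr17:39597186-39597485, - strand) were fully covered by xxChIP H1.5 alone. KRT85 (chr12:52761216-52761515, - strand) was covered by both xxChIP lists and to 31% by xChIP H1.2. KRTAP4-5 (chr17:39306028-39306327, - strand) was fully covered by both xxChIP lists. KRTAP6-3 (chr21:31964509-31964808, + strand) was covered to 0, 100, 100 and 19.3% in list order. KRTAP10-9 (chr21:46046760-46047059, + strand) was fully covered by xChIP H1.2 alone. All coordinates are GRCh37, each window holds 300 bases, and KRT38 and KRTAP4-5 were chosen after their values were seen. No promoter sequence was held for KRT7, KRT14, KRT1, KRT18, KRT19 and KRT83.
KRT5: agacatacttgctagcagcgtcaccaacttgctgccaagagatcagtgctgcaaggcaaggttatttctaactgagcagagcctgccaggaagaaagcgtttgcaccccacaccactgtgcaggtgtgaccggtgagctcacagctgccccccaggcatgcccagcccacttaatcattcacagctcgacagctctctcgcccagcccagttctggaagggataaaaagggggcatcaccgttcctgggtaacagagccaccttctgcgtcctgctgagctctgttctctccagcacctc
KRT10: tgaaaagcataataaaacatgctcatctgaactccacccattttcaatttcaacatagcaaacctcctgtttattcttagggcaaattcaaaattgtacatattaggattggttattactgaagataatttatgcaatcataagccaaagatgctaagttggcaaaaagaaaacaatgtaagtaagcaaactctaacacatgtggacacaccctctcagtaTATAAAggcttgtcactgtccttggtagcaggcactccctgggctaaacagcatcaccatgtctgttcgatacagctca
KRT85: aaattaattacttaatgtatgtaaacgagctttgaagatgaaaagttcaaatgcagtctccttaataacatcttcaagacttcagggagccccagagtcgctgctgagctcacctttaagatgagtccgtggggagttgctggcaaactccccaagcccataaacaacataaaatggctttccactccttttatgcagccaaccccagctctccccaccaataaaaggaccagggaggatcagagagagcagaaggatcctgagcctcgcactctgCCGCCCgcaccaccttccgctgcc
KRT31: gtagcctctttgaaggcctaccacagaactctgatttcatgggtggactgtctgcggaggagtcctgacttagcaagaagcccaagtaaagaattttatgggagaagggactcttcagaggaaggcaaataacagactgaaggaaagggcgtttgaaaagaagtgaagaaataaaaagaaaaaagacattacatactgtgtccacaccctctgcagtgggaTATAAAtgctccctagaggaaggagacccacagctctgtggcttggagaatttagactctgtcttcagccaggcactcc
KRT38: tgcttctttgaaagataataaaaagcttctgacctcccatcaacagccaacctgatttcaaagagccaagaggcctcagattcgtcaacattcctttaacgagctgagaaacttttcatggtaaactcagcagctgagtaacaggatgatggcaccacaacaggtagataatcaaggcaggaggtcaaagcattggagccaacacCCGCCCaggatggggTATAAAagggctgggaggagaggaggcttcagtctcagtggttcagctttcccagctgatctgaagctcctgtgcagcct
KRTAP4-5: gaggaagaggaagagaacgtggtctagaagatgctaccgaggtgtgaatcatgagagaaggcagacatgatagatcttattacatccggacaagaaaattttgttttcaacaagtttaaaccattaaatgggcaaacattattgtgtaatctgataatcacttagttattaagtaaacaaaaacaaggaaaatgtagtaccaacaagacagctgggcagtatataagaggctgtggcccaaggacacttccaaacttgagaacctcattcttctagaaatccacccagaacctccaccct
KRTAP6-3: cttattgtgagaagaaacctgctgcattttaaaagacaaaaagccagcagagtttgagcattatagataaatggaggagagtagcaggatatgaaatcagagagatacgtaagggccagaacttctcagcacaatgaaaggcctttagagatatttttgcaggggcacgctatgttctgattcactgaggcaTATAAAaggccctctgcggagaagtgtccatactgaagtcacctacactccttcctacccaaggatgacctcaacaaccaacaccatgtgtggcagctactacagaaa
KRTAP10-9: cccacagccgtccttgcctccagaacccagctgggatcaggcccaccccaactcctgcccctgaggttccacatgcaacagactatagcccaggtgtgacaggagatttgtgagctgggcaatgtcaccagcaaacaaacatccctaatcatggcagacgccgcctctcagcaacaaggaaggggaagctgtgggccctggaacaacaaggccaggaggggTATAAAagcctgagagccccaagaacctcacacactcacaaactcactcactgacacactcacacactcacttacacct
A TATAAA was found in 5 of these windows, at 29 bases before the start in KRT10, KRT31 and KRTAP10-9, at 30 in KRT38 and at 58 in KRTAP6-3. KRT5 and KRTAP4-5 held neither string of letters. Among all members with a promoter, TATAAA was found in 35 of 52 with no peak in the TSS window (67.3%), in 37 of 48 touched by an xxChIP list (77.1%) and in 25 of 31 touched by an xChIP list (80.6%), where a member can stand in both of the last counts. Promoters with and without a peak thus both mostly carried TATAAA.

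The start sites of KRT and KRTAP genes were touched less often by xChIP peaks and more often by xxChIP peaks than those of their comparison genes. A TSS window was counted from 1 bp shared with a peak. For KRT genes, xChIP H1.2 peaks touched 19 of 55 windows (34.5%, 95% Wilson interval 23.4 to 47.7%), with 58.2% in comparison genes and 48.2% over all protein-coding genes. xChIP H1.5 touched 2 windows (3.64%, 1.00 to 12.3%), with 25.6% in comparison genes and 21.6% over all genes. The xxChIP lists stood the other way round. xxChIP H1.2 touched 10 KRT windows (18.2%, 10.2 to 30.3%), with 5.51% in comparison genes and 8.78% over all genes. xxChIP H1.5 touched 16 (29.1%, 18.8 to 42.1%), with 5.49% in comparison genes and 7.92% over all genes. On chromosomes 12 and 17, KRT shares minus comparison shares were -37.1 and -10.7 percentage points (xChIP H1.2) and -33.3 and -11.0 (xChIP H1.5). They were 21.7 and 3.94 (xxChIP H1.2) and 16.5 and 30.4 (xxChIP H1.5).

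The KRTAP genes showed the same directions. xChIP H1.2 touched 20 of 94 KRTAP windows (21.3%, 14.2 to 30.6%; comparison genes 36.5%) and xChIP H1.5 touched 7 (7.45%, 3.65 to 14.6%; comparison genes 16.03%). xxChIP H1.2 touched 26 (27.7%, 19.6 to 37.4%; comparison genes 10.7%) and xxChIP H1.5 touched 21 (22.3%, 15.1 to 31.8%; comparison genes 7.85%). The intervals cover counting error only. Neighbouring members also shared peaks, since the 36 member windows touched by xxChIP H1.2 lay under 30 separate peaks and the 39 touched by xChIP H1.2 under 35. No test was made, and nothing here is shown to be particular to these families.

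**Figure D1:**
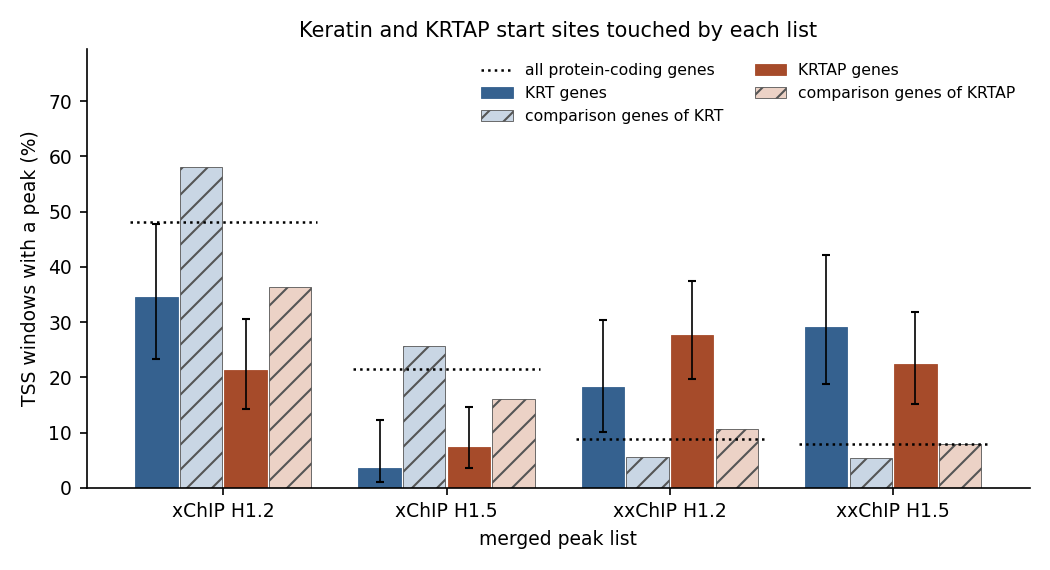
Share of TSS windows (±1000 bp) touched by at least 1 bp of a peak, in percent, for KRT and KRTAP genes (filled bars, with 95% Wilson intervals), for their comparison genes (hatched bars) and for all protein-coding genes (dotted lines), in each merged list. Filled bars lie below the hatched bars in both xChIP lists (KRT 34.5 against 58.2% for H1.2) and above them in both xxChIP lists (KRT 29.1 against 5.49% for H1.5).

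These differences depended on the genes and peaks that entered them. When peaks of 20 kb or more were left out, the KRT difference for xChIP H1.2 changed sign, from -23.6 to 5.36 percentage points, with 29.1% of KRT and 23.7% of comparison windows still touched, and that for KRTAP genes went from -15.2 to -1.51. When comparison genes were restricted to a CpG ratio under 0.4, chosen after seeing the data, the KRTAP differences for xxChIP H1.2 and H1.5 went from 16.98 and 14.5 to 5.40 and 5.16, and those for KRT genes from 12.7 and 23.6 to 5.69 and 19.3. Against CpG-poor genes, the comparison shares lay within the Wilson intervals of the KRTAP genes for both xxChIP lists (22.3% and 17.2%). That for KRT genes lay within the interval for xxChIP H1.2 (12.5%) and below it for xxChIP H1.5 (9.76%). These intervals treat neighbouring genes that share peaks as independent and the comparison share as exact. They therefore cannot decide which of these differences stand out. The same restriction left the xChIP differences negative, at -20.2 (H1.2) and -24.2 (H1.5) for KRT and at -12.8 and -15.6 for KRTAP genes. The cause of these changes was not tested.

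**Figure D2:**
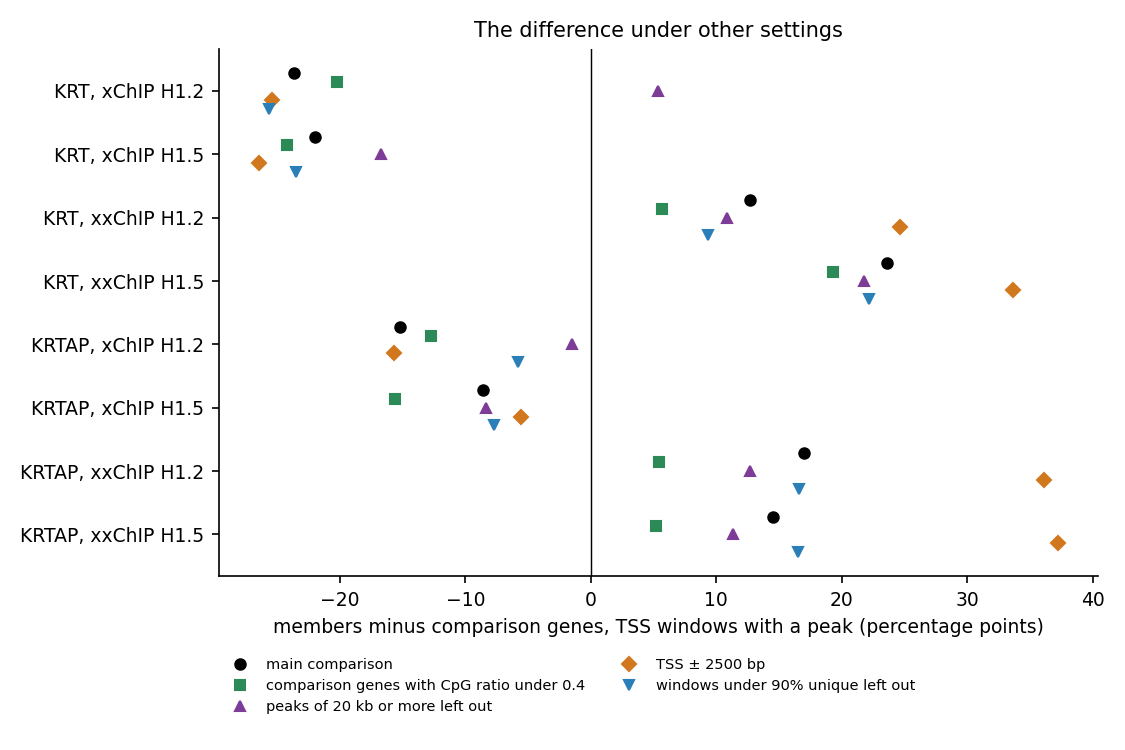
Share of TSS windows with a peak in members minus that in comparison genes, in percentage points (horizontal axis), for each family and list (vertical axis) in the main comparison and in 4 alternatives. All points of the xxChIP lists lie above 0, and a point changes side for KRT and xChIP H1.2, at 5.36 without peaks of 20 kb or more.

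Taken by protocol, members were split differently from protein-coding genes at large. Peaks of xChIP only were found at 24 members (16.1%, against 48.5% of all genes), and peaks of xxChIP only at 39 (26.2%, against 6.86%). Windows of 23 members (15.4%) held peaks of both protocols, against 6.77% of all genes, and 63 members (42.3%) had no peak of any list, against 37.9%. The share without any peak was thus close to the background, whereas the members with a peak were divided otherwise between the protocols. This background was not matched for chromosome, GC content or CpG ratio, and nearly all members had CpG-poor start sites. The split is therefore not shown to be particular to the members. No member was touched by all 4 lists, a combination that held for 0.463% of all genes, or 93 genes. The combinations of 3 lists were found at KRT85 and KRTAP16-1 (xChIP H1.2 with both xxChIP lists, 0.637% of all genes) and at KRTAP6-3 (xChIP H1.5 with both xxChIP lists, 0.383% of all genes), and the other combinations of 3 lists, at 0.841% and 0.677% of all genes, were found at no member, KRTAP16-1 being named after its values were seen.

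Gene bodies, from the start to the end of the gene record, gave the same directions. For KRTAP genes this is largely not a separate result. Their bodies begin at the TSS and had a median of 859 bp, so most lay inside the TSS window already counted. Their comparison genes had a median of 22972 bp and reached far beyond it. Peaks covered on average 26.0%, 5.32%, 11.2% and 19.0% of a KRT gene, in list order. In their comparison genes the averages were 47.5%, 16.8%, 7.07% and 5.98%. For KRTAP genes the averages were 11.2%, 2.65%, 18.7% and 17.2%, with 25.5%, 13.8%, 11.1% and 8.45% in comparison genes. Averaged over each family, gene bodies therefore had less xChIP and more xxChIP coverage than those of genes of similar GC content. Not every cluster did, since the difference was -3.17 percentage points for xxChIP H1.2 at KRTAP5-1 to KRTAP5-6, -0.723 for xxChIP H1.2 at KRTAP5-7 to KRTAP5-11, and -1.34 for xxChIP H1.5 in the smaller cluster of chromosome 21, where it was -0.666 at the start sites. For KRT genes and xChIP H1.2, the difference was -42.2 on chromosome 12 but only -1.53 on chromosome 17 (28.4 against 30.0%). Without peaks of 20 kb or more, the KRT difference for xChIP H1.2 again changed sign, from -21.5 to 3.28. That of KRTAP genes went from -14.3 to -6.93. For xxChIP H1.2 the same omission took the KRT difference from 4.12 to 1.89 and the KRTAP difference from 7.59 to 4.60, and equal weights for the clusters took the latter to 3.72.

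At least 50% of the gene body was covered by xChIP H1.2 in 22 of 149 members (31.0% of all genes) and by xChIP H1.5 in 3 (4.88% of all genes). It was covered to that extent by xxChIP H1.2 in 19 members (2.20% of all genes) and by xxChIP H1.5 in 27 (1.80% of all genes). In list order these were 11, 1, 1 and 11 KRT genes and 11, 2, 18 and 16 KRTAP genes. Most KRTAP bodies are shorter than the median peak, which was 2033 to 2335 bp in the 4 lists, so that they were usually covered whole or not at all. For xxChIP H1.2, 71 of 94 KRTAP genes were at 0, against 39.4% of all genes, and 13 were covered to 100%, so that a higher mean went with more genes without any peak. Across the gene body, 54 members were at 0 in all 4 lists (36.2%, against 8.97% of all genes), namely 50 KRTAP (53.2%) and 4 KRT genes (7.27%). Short genes can be missed more easily by peaks, and gene length was not taken into account in these counts.

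**Figure D3:**
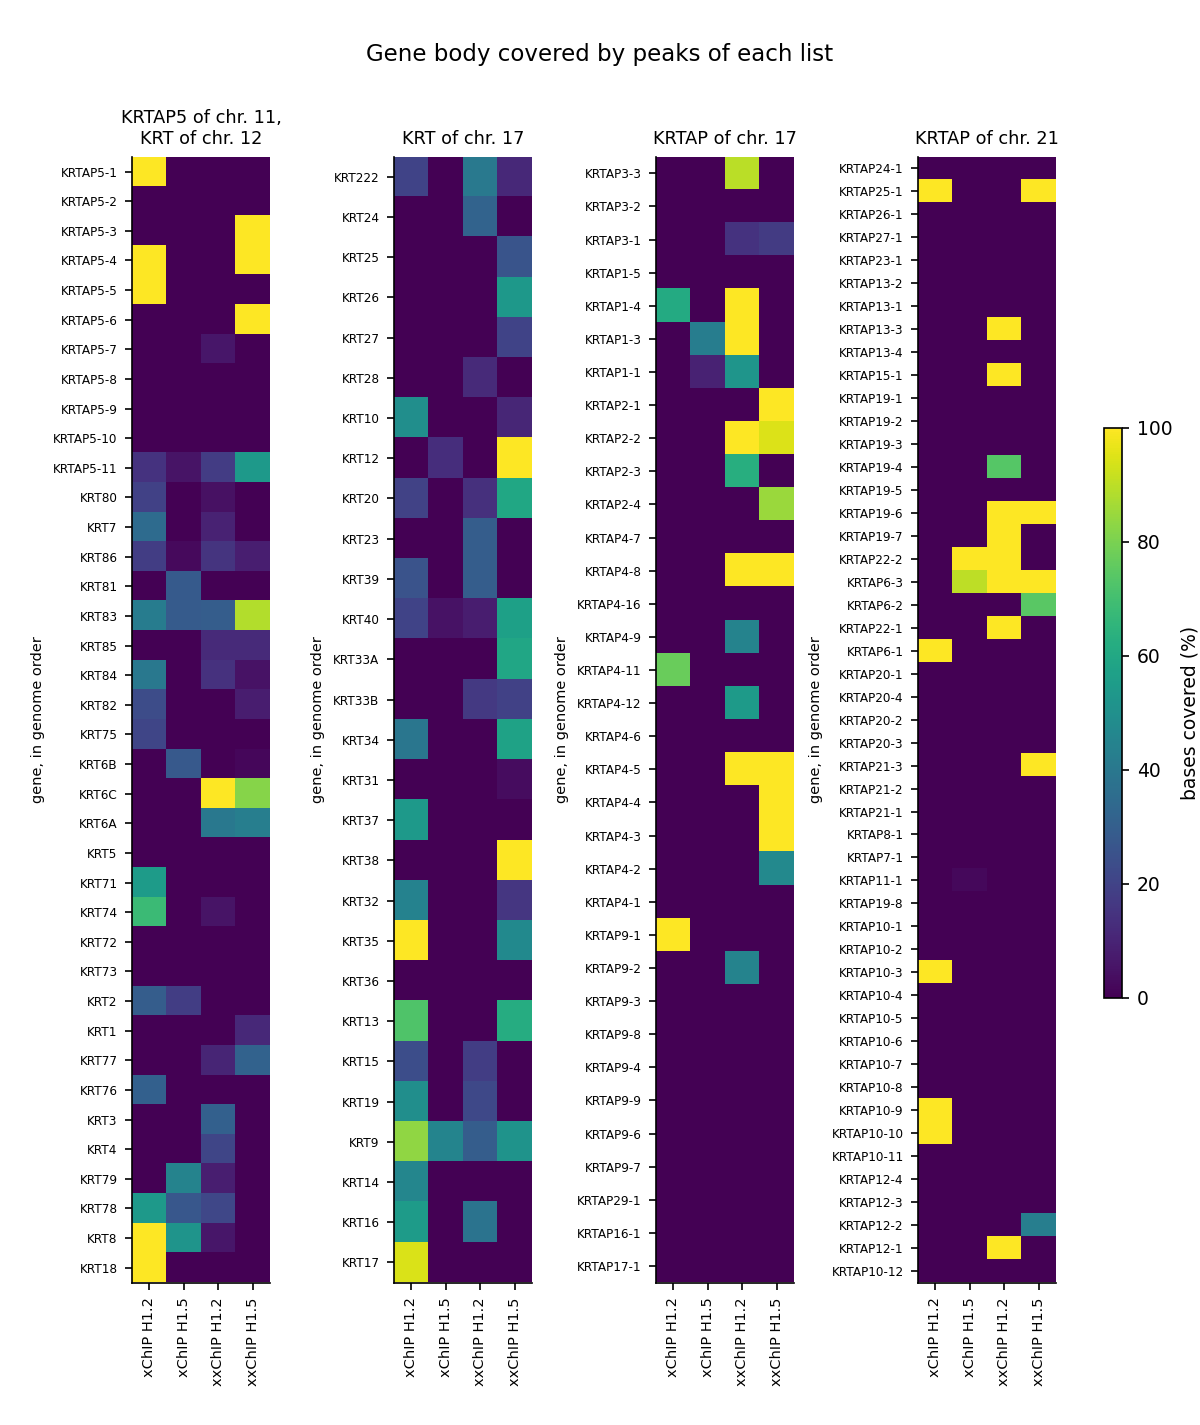
Percent of each gene body covered by peaks (colour) in each of the 4 lists (columns) for all 149 members (vertical axis, in genome order), in 4 panels by family and chromosome. KRTAP genes are mostly at 0 or 100%, and 54 members are at 0 in every list.

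From 2125 bp upstream to the start sites, xxChIP coverage of the families fell, as it did in comparison genes, but from a higher level. For KRTAP genes, xxChIP H1.2 covered 29.9% at 2125 bp before the TSS, 15.9% in the 250 bp just before it and 29.0% at 2125 bp after it. Comparison genes had 13.0%, 4.19% and 5.95% at these places. For KRT genes, xxChIP H1.5 covered 34.9% at 2125 bp before the TSS, 23.6% just before it and 19.0% at 2125 bp after it, with 7.02%, 1.46% and 4.35% in comparison genes. KRT coverage by xxChIP H1.5 was lowest on the gene side, at 15.6% at 625 bp after the TSS. Its comparison genes were also lowest on that side, at 0.995% at 375 bp after the TSS. Just before the TSS, KRT coverage by xxChIP H1.5 was above that of KRTAP genes (14.9%). A wider window of 2500 bp on either side raised the xxChIP differences of KRTAP genes to 36.1 percentage points (H1.2) and 37.2 (H1.5). For KRT genes and xChIP H1.5, coverage was 10.0% at 2125 bp before the TSS, 1.51% just before it and 0% at 2125 bp after it, with 21.8%, 15.4% and 19.5% in comparison genes.

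**Figure D4:**
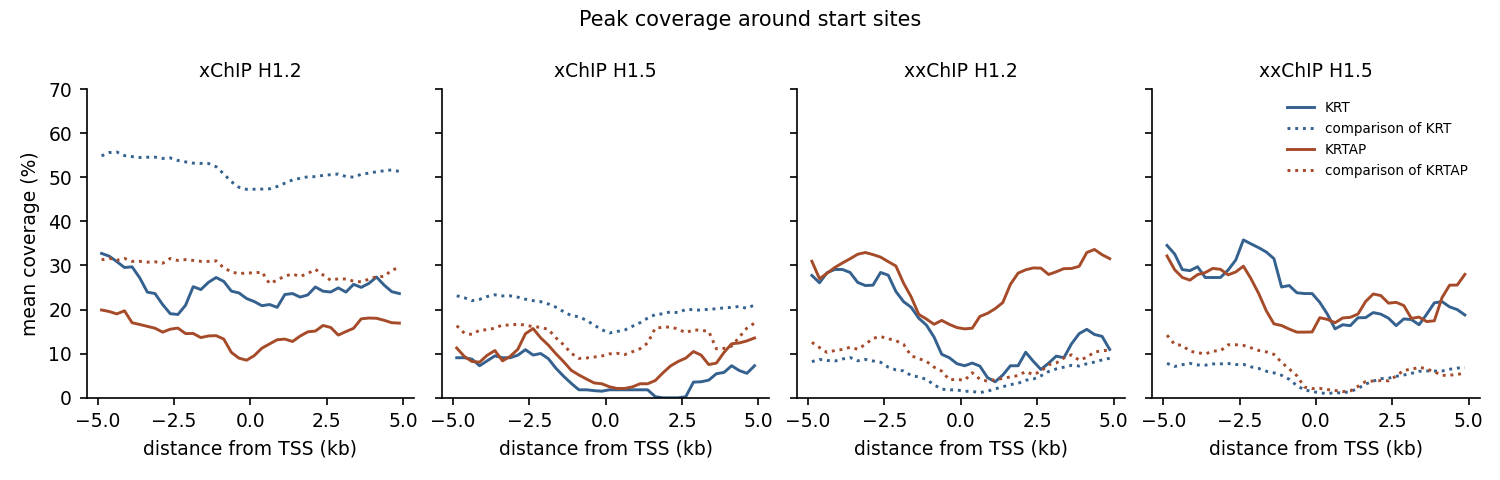
Mean coverage by peaks in percent (vertical axis) in steps of 250 bp against the distance from the TSS in kb, oriented by strand, for KRT and KRTAP genes (solid lines) and their comparison genes averaged per member (dotted lines), in each list. In xxChIP H1.5 the KRT line is at 23.6% just before the TSS and its comparison line at 1.46%.

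Of the 5 keratins of simple epithelia, 4, 0, 1 and 0 start sites were touched in list order, with 62.9%, 27.7%, 3.74% and 4.58% in their comparison genes. KRT8 and its partner KRT18, the first keratins made in the embryo, are neighbours on chromosome 12, and both gene bodies and both windows were covered to 100% by the same xChIP H1.2 peak. Across the gene record, KRT8 also had 51.7% in xChIP H1.5, 6.03% in xxChIP H1.2 and 0% in xxChIP H1.5. The KRT8 peaks of xChIP H1.5 (chr12:53308329-53335592) and xxChIP H1.2 (chr12:53311588-53314768) lay upstream of its Ensembl canonical transcript, which starts at 53298860. They therefore covered none of that transcript. KRT18 was at 0 in the lists other than xChIP H1.2. KRT7, a keratin of glands and ducts, had 34.9%, 0%, 9.47% and 0% of the gene covered in list order. KRT19, the smallest keratin, had 49.5% in xChIP H1.2 and 21.5% in xxChIP H1.2 across the gene, with 0% in both H1.5 lists, and xChIP H1.2 covered 100% of its window. Its CpG ratio of 0.639 was the highest of the members, and KRT7, KRT8 and KRT18 also had ratios above 0.4. KRT20, a keratin of the intestinal lining, differed from them, with 19.8% in xChIP H1.2, 0% in xChIP H1.5, 13.8% in xxChIP H1.2 and 59.5% in xxChIP H1.5 across the gene, and no peak in its window.

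Of the 7 epidermal keratins, 2, 0, 0 and 3 start sites were touched in list order, with 59.9%, 26.0%, 6.23% and 6.01% in comparison genes, counts too small to set the lists apart. KRT5 and KRT14 are the pair of the basal layer. KRT5 was at 0 in all 4 lists, in the gene and in the TSS window. KRT14 had 45.8%, 0%, 0% and 0% of the gene covered in list order, and 3.55% of its window was covered, which was 85.3% unique in 50-mers, so that its values are uncertain. The pair of the layers above, KRT1 and KRT10, both had xxChIP H1.5 peaks at the start site, which covered 82.4% of the KRT1 window and 73.9% of the KRT10 window. Across the gene, KRT1 had 11.4% in xxChIP H1.5 and 0% in the other lists, while KRT10 had 49.3% in xChIP H1.2, 0% in xChIP H1.5 and xxChIP H1.2, and 10.6% in xxChIP H1.5. The members of a pair lie on different chromosomes, 12 and 17, and the pair KRT5 and KRT14 thus differed in xChIP H1.2. KRT9, the keratin of palms and soles, had the highest summed gene coverage of its cluster, with 83.5%, 45.0%, 29.6% and 51.2% in list order.

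The 10 keratins of other stratified epithelia and of stressed skin had 3, 2, 3 and 3 windows touched in list order, with 62.2%, 28.1%, 5.63% and 5.92% in comparison genes. KRT6C and KRT6A, which are induced in wounded skin, lay under shared xxChIP peaks. Across the gene, KRT6C had 100% in xxChIP H1.2 and 81.9% in xxChIP H1.5, KRT6A had 39.9% and 42.9%, and both were at 0 in xChIP. Their windows were only 61.9% and 78.2% unique in 50-mers, so that these values are uncertain, as are those of KRT17. KRT17, also induced in wounds, had 94.4%, 0%, 0% and 0% of the gene covered, with a window 80.7% unique. xxChIP H1.2 covered 15.3% of this window. KRT16, of the same 10 keratins, had 54.9% in xChIP H1.2 and 38.0% in xxChIP H1.2 across the gene, with a window 83.5% unique. KRT12, the keratin of the cornea, was covered to 100% by xxChIP H1.5 and to 13.2% by xChIP H1.5. xxChIP H1.2 peaks were thus found at KRT6C, KRT6A, KRT16 and KRT17, and xChIP H1.2 peaks at KRT16 and KRT17 but not at KRT6C and KRT6A. KRT6C, KRT6A, KRT12 and KRT17 were named after their values were seen, as was KRT16.

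Keratins of the hair follicle included 9 of the inner root sheath and companion layer and 17 of the hair shaft. The former had 3, 0, 1 and 2 windows touched in list order, with 53.9%, 26.9%, 7.30% and 7.03% in comparison genes. Of these, KRT72 and KRT73 were at 0 across the gene in all lists, although xChIP H1.2 covered 33.9% of the KRT73 window. Hair shaft keratins had 6, 0, 5 and 8 windows touched (35.3%, 0%, 29.4% and 47.1%), with 57.02%, 22.9%, 4.62% and 4.39% in comparison genes. KRT31 and KRT85 are hair keratins of type I and type II. KRT85 had 0% in both xChIP lists, 11.8% in xxChIP H1.2 and 12.0% in xxChIP H1.5 across the gene, but 42.1%, 0%, 94.0% and 94.9% of its window was covered in list order. KRT31 had 3.32% in xxChIP H1.5 across the gene and 56.4% in its window, and 0% in the other lists. Most of either gene body was thus uncovered, but the peaks differed. That of KRT31 was 1173 bp long, whereas those of KRT85 were 12318 bp (xxChIP H1.2) and 10342 bp (xxChIP H1.5). All of them lay mostly upstream of the start, and the xxChIP H1.2 peak of KRT85 ran into KRT84. KRT83, with the highest summed gene coverage of the chromosome 12 cluster, had 41.9%, 28.7%, 29.5% and 88.6%, and KRT36 was at 0 in all 4 lists. KRT38, shown above, was covered to 100% by xxChIP H1.5 across the gene and in the window. The remaining 7 KRT genes, for which no role was assigned, had 1, 0, 0 and 0 windows touched, with 55.7%, 25.2%, 5.72% and 5.66% in comparison genes.

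Among the KRTAP genes, the 39 of the high sulfur families had 8, 4, 11 and 7 windows touched in list order, with 40.2%, 15.8%, 8.12% and 8.29% in comparison genes. The 32 of the ultrahigh sulfur families had 8, 1, 8 and 9, with 42.5%, 17.05%, 8.17% and 7.02% in comparison genes. The 22 of the high glycine-tyrosine families had 4, 2, 7 and 5, with 20.7%, 15.1%, 19.1% and 8.39%. Each of these 3 classes was thus touched by each list, with xxChIP shares above those of comparison genes. KRTAP29-1, which was given no class, was at 0 in all lists. KRTAP6-3, a high glycine-tyrosine gene, had the highest summed gene coverage of its cluster, with 0%, 89.9%, 100% and 100% in list order. KRTAP5-4, an ultrahigh sulfur gene, had 100%, 0%, 0% and 100%. Among high sulfur genes, KRTAP10-3, KRTAP10-9 and KRTAP10-10 were covered to 100% by xChIP H1.2 alone and KRTAP12-1 to 100% by xxChIP H1.2 alone. Genes of the same class therefore fell under different lists.

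With gaps of at most 500 kb, the members formed 6 clusters. The KRTAP5 genes of chromosome 11 lay in a cluster of 6 (chr11:1605572-1718985) and a cluster of 5 (chr11:71238313-71314399). The 27 KRT genes of chromosome 12 spanned 784 kb (chr12:52562780-53346690). On chromosome 17, 28 KRT and 34 KRTAP genes spanned 970.2 kb (chr17:38810917-39781094). Chromosome 21 held 33 KRTAP genes in 757 kb (chr21:31653627-32410795) and 16 in 159 kb (chr21:45958864-46117959), the latter inside the gene TSPEAR. Apart from TSPEAR and an unnamed gene on chromosome 17, no other protein-coding gene lay within the spans. All coordinates are hg19.

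The chromosome 12 cluster was covered to 32.3%, 10.3%, 21.1% and 21.04% in list order, and the whole chromosome to 31.1%, 20.6%, 22.7% and 20.7%, so that the cluster was near the level of its chromosome except for xChIP H1.5. The 500 kb beyond its KRT18 end were covered to 88.4%, 43.0%, 7.43% and 2.96%, and those beyond its KRT80 end to 45.2%, 15.2%, 20.3% and 12.9%. KRT8 and KRT18 stood at the former border, under a single xChIP H1.2 peak of 132330 bp (chr12:53271018-53403347) that also reached EIF4B. The other keratins of the cluster lay outside xChIP peaks of 20 kb or more. Within the cluster, xxChIP peaks lay more between the genes than in them, with 10.5% of gene bodies and 29.3% of the sequence between them covered by xxChIP H1.2, and 7.51% and 31.5% by xxChIP H1.5. In xChIP H1.2 these were alike, at 31.9% and 32.5%.

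The chromosome 17 cluster was covered to 17.1%, 7.66%, 20.97% and 28.0% in list order, and the whole chromosome to 30.2%, 11.2%, 12.9% and 11.8%. Its flanks of 500 kb had 42.1% and 72.1% in xChIP H1.2, 15.1% and 13.2% in xChIP H1.5, 6.21% and 3.51% in xxChIP H1.2, and 7.57% and 2.71% in xxChIP H1.5. Over these distances, coverage was thus lower in xChIP and higher in xxChIP inside the cluster than on both sides. In the 100 kb inside the KRT17 end, xChIP H1.2 covered 39.0%, and in the 100 kb outside it 97.4%. The ends were not alike, since at the KRT222 end xxChIP H1.5 covered 8.16% of the 100 kb inside and 19.96% of the 100 kb outside. KRT17, at the other end, lay under an xChIP H1.2 peak of 102477 bp (chr17:39775996-39878472) shared with EIF1, GAST and HAP1. The cluster had a GC content of 42.8%, against 45.5% for the chromosome.

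The members of this cluster were arranged as 12 KRT genes (KRT222 to KRT40), the 34 KRTAP genes and 16 KRT genes (KRT33A to KRT17). xChIP H1.2 touched 0 start sites of the former 12 KRT genes, 7 of the KRTAP genes and 9 of the latter 16 KRT genes, and xChIP H1.5 touched 0, 4 and 1. xxChIP H1.2 touched 2, 13 and 1, and xxChIP H1.5 touched 5, 9 and 5. Over all 28 KRT genes of the cluster, comparison shares were 42.8%, 14.6%, 6.77% and 5.30% in list order. For its KRTAP genes they were 30.6%, 11.9%, 9.40% and 7.60%. These shares were not taken for each side alone. Neither the 0 of 12 nor the 9 of 16 (56.3%) can therefore be placed against genes of their own GC content. The KRT genes on either side of the KRTAP genes therefore differed in xChIP H1.2 and were alike in xxChIP H1.5, with a mean gene coverage of 11.2 and 41.3% in the former and 28.2 and 26.0% in the latter. The sides also differed in GC content, at 40.1 and 48.8%. Over the 28 KRT genes of the cluster, local GC content and xChIP H1.2 gene coverage had a Spearman correlation of 0.62 (over all 55 KRT genes 0.48, and -0.34 for xxChIP H1.5). Neighbouring genes share most of their 100-kb GC windows and some of their peaks, so these are descriptions only.

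**Figure D5:**
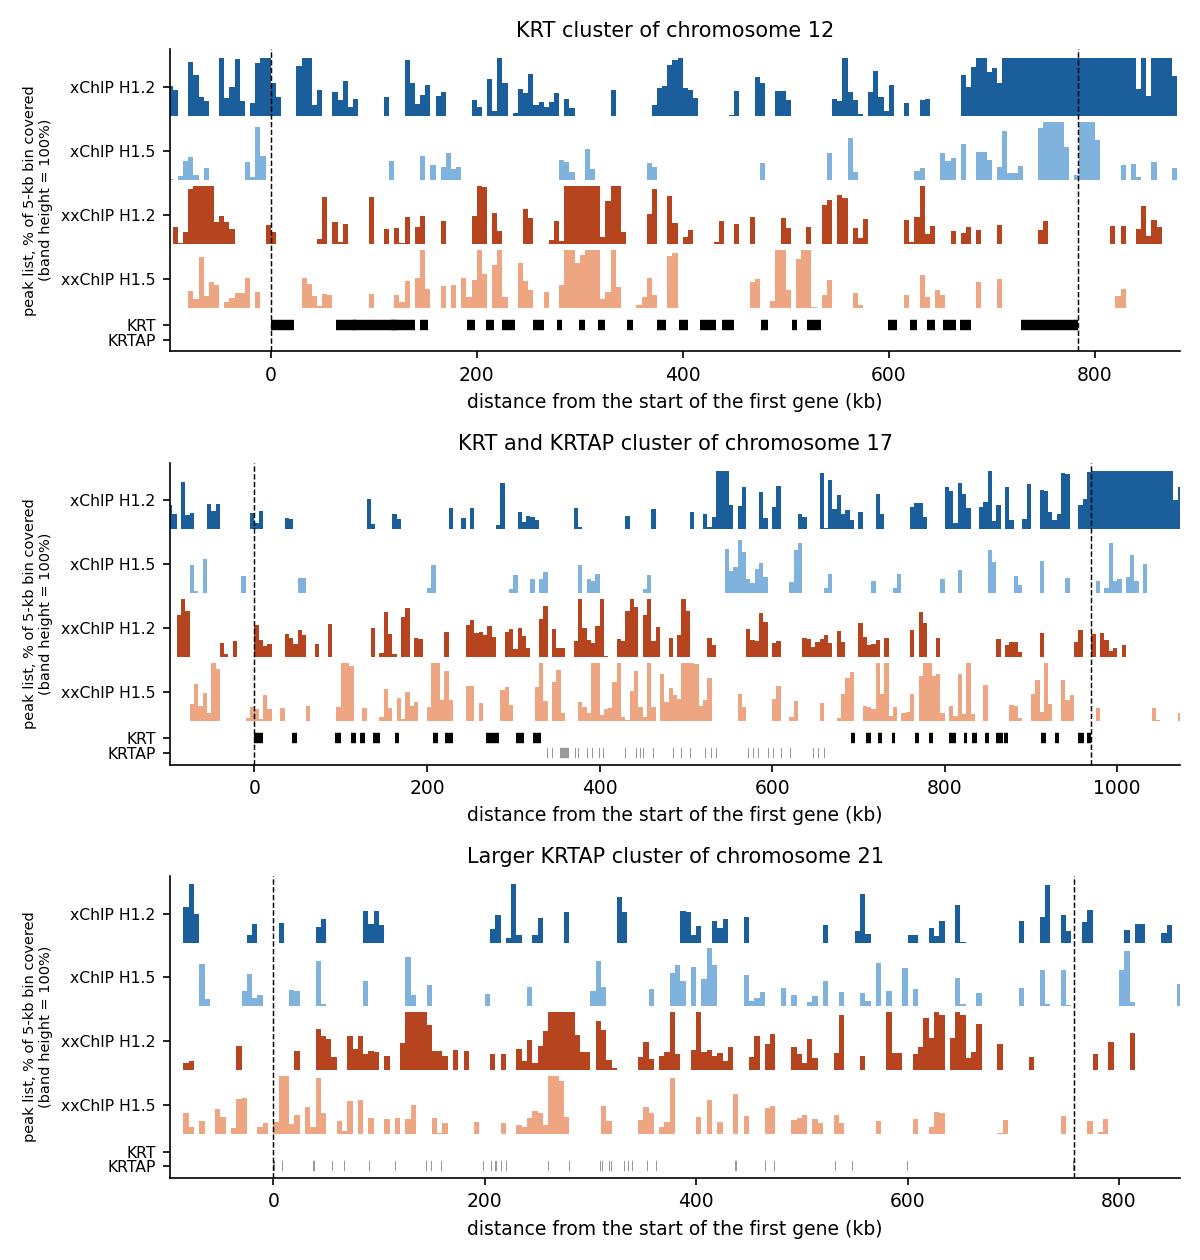
Percent of each 5-kb bin covered by peaks of each list (4 bands, each from 0 to 100%) along the clusters of chromosomes 12 and 17 and the larger cluster of chromosome 21, against the distance from the start of the first gene in kb, with KRT and KRTAP genes as bars and the cluster ends as dashed lines. At the right ends on chromosomes 12 and 17, xChIP H1.2 fills its band under peaks of 132330 and 102477 bp.

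On chromosome 21 the larger cluster was covered to 10.3%, 11.4%, 29.1% and 15.3% in list order, with a GC content of 37.2%, and the whole chromosome to 24.2%, 15.3%, 17.2% and 12.6%. Its flanks had 7.68% and 37.5% in xChIP H1.2, 12.7% and 14.4% in xChIP H1.5, 14.4% and 5.94% in xxChIP H1.2, and 13.2% and 4.55% in xxChIP H1.5. In xChIP H1.2 the cluster thus lay between its flanks, and in xxChIP H1.5 it was little above the left flank. Here xxChIP H1.2 peaks of 31394 bp (chr21:31910265-31941658) and 26265 bp (chr21:31776266-31802530) covered KRTAP19-6 and KRTAP19-7, and KRTAP13-3. The smaller cluster had 20.7%, 11.6%, 27.2% and 15.5%, and its flanks had 57.9% and 39.3% in xChIP H1.2, 18.8% and 11.4% in xChIP H1.5, 3.95% and 6.73% in xxChIP H1.2, and 2.50% and 6.85% in xxChIP H1.5. Both clusters of chromosome 21 were thus richer in xxChIP H1.2 than their surroundings. In the smaller cluster these peaks lay between the genes, with 3.55% of gene bodies and 29.9% of the remaining span covered. In the larger cluster 20 of 33 genes were at 0 across the gene in all lists, and in the smaller cluster 11 of 16, against 8.97% of all genes. In the smaller cluster only 5 of 16 TSS windows were at least 90% unique in 50-mers, so that its genes without a peak are uncertain.

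The KRTAP5 clusters of chromosome 11 went different ways. The cluster with KRTAP5-1 to KRTAP5-6 was covered to 53.0%, 15.3%, 3.54% and 22.3% in list order, and the one with KRTAP5-7 to KRTAP5-11 to 15.1%, 4.73%, 30.9% and 41.3%, against 26.2%, 16.5%, 18.9% and 16.4% for the chromosome. xChIP H1.2 touched 4 of 6 start sites in the former (66.7%, comparison genes 68.5%) and 0 of 5 in the latter (comparison genes 62.2%), so that the former was at the level of its comparison genes. The former held 2 xChIP H1.2 peaks of at least 20 kb, of 20743 bp over KRTAP5-1 and of 25531 bp (chr11:1635885-1661415) over KRTAP5-4 and KRTAP5-5. This difference within a subfamily is uncertain, because only 1 of 6 and 1 of 5 of these TSS windows were at least 90% unique. KRTAP5-11 had the highest summed coverage of its cluster, with 14.7%, 5.27%, 17.6% and 54.01% across a gene record of 21499 bp. Its canonical transcript starts 20478 bp away, and the window there was at 0 in all lists. KRTAP5-8, KRTAP5-9 and KRTAP5-10 were at 0 across the gene in all lists, as was KRTAP5-2 in the other cluster.

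Near-identical copies limit what can be read from the KRTAP genes, because only uniquely mappable reads entered the lists. The share of positions in a TSS window that start a 50-mer found once in GRCh37 had a median of 99.9% over KRT, 93.7% over KRTAP and 99.8% over comparison genes. It reached 90% in 47 of 55 KRT and 56 of 94 KRTAP windows, and in 89.9% of comparison genes. The lowest member was KRTAP9-8, at 52.2% of its window and 24.1% of its gene, and KRTAP9-2 had 17.01% of its gene. KRTAP9-4, KRTAP9-6, KRTAP9-7, KRTAP9-8 and KRTAP9-9, named after their values were seen and all at 0 across the gene in the 4 lists, are uncertain for this reason. KRTAP5-1, KRTAP5-5, KRTAP9-2, KRTAP13-3, KRTAP19-6, KRTAP19-7, KRT16 and KRT84 were also named after their values were seen. When members with windows under 90% were left out, chosen after seeing the data, the KRTAP differences were -5.82, -7.73, 16.6 and 16.5 percentage points in list order. Among these windows the xxChIP differences of KRTAP genes were thus about as large as over all KRTAP genes, while that for xChIP H1.2 was nearer to 0 than the -15.2 over all. The make-up of the set changed as well, since 32 of the 56 windows kept were of the larger cluster of chromosome 21. That cluster had an xChIP H1.2 difference of -5.74 by itself. The change can therefore not be assigned to uniqueness. The read length was not known here, so 50-mers only approximate which copies the reads could tell apart.

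The start of the gene record is not always the start of the main transcript. It differed from the start of the Ensembl canonical transcript in 16 members and by more than 1000 bp in 8. For KRT8 it was 44878 bp away, still under the same xChIP H1.2 peak, and xChIP H1.2 covered 100% of its canonical window as well. For KRT16 the canonical window had 61.3% in xChIP H1.2 and 100% in xxChIP H1.2, whereas its gene record window was touched by xChIP H1.2 alone. With canonical starts, a choice made after seeing the data, all 8 differences kept their sign, between -22.9 percentage points (KRT, xChIP H1.2) and 24.2 (KRT, xxChIP H1.5).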

How the data were processed

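H1.2 and H1.5 were mapped by xChIP-seq and xxChIP-seq in 12 samples, 3 replicates per group, and the 6 Input samples were not used here. Paired-end reads had been aligned by the authors with Bowtie2 (hg19), and uniquely mappable ones entered MUSIC, run by replicate with its defaults. Replicates were then merged. The versions of Bowtie2 and MUSIC are not given in the sources used here. The values deposited by the authors and used here were the start and end positions of merged peaks, in bp.

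Gene positions came from the GRCh37 lift of GENCODE v44. Overlap with TSS windows, coverage of gene bodies, clusters and flanks of 500 kb were computed, with shares of comparison genes averaged over members and no test made. The counting steps were tested on simulated data. Alternatives changed the window, overlap rule, peak length, comparison genes, GC window and weights. Members and lists were chosen with earlier results of these data known. Named genes were fixed keratin pairs, KRT7, KRT19, KRT20, and the members with the highest and lowest summed coverage per cluster. Protein composition was not analysed here. Plots were drawn with matplotlib 3.10.9, sequences read with samtools 1.23.1 and pyfaidx 0.9.0.4, and counts made in Python 3.11.15 with numba 0.67.0, scipy 1.17.1 and numpy 2.4.6.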

Additional observations from a re-analysis of the deposited data

How the results depend on the processing

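No paired analysis was possible because each list merges its 3 replicates. Of 56 values for the share of TSS windows with a peak under alternatives, 43 lay within the 95% interval of the main value. Of 104 differences from comparison genes 90 did so, and of 80 gene body differences 76. These were Wilson intervals of the members' value alone, which for gene bodies treat a mean coverage as a share of genes. Such counts therefore do not measure stability. Without peaks of 20 kb or more, the KRT differences for xChIP H1.2 changed sign, to 5.36 percentage points (TSS) and 3.28 (gene body), and the KRTAP TSS difference was -1.51. No other difference changed sign.

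With windows of 2500 bp on either side, shares were 14.5% (xChIP H1.5), 40.0% (xxChIP H1.2) and 49.1% (xxChIP H1.5) for KRT, and 34.0%, 25.5%, 57.4% and 54.3% for KRTAP in list order. The differences were -26.5 (KRT, xChIP H1.5), 36.1 (KRTAP, xxChIP H1.2) and 37.2 (KRTAP, xxChIP H1.5). With 500 bp the KRTAP share for xChIP H1.2 was 13.8%. When 50% of the window had to be covered, shares were 21.8% (xChIP H1.2) and 7.27% (xxChIP H1.2) for KRT, and 9.57% and 3.19% (xChIP of H1.2 and H1.5) and 14.9% (xxChIP H1.2) for KRTAP, and the KRT difference for xChIP H1.5 was -13.0. A wider window touches more peaks by construction.

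Against all genes of the chromosome, KRTAP differences were -26.6 (TSS) and -24.8 (gene body) for xChIP H1.2 and -12.6 (TSS) for xChIP H1.5. With clusters weighted equally they were -23.1, -20.9 and -16.0. Alternatives chosen after seeing the data were CpG-poor comparison genes, unique windows and canonical starts. Against CpG-poor genes, KRTAP TSS differences were -15.6 (xChIP H1.5), 5.40 (xxChIP H1.2) and 5.16 (xxChIP H1.5), and the gene body difference was -14.3 (xChIP H1.5). With unique windows the KRTAP TSS difference for xChIP H1.2 was -5.82. The cause was not tested. The lists carry no depth, score or replicate support, so a window without a peak cannot be told apart from too few reads.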
